A study of Homo sapiens with 2 samples.

Results

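The HOX genes of clusters A to D were described across the cell types and subclusters of 2 single-cell libraries of enteric neural crest differentiation. Members were all gene names made of HOX, a cluster letter from A to D and a paralog number. This gave 39 of the 33694 genes in each library, of which 20 had at least 1 unique molecular identifier (UMI, 1 counted RNA molecule) at day 10 and 22 at day 15. All cells derived from the human embryonic stem cell line H9. The day 10 library held adherent cultures under neural crest induction, and the day 15 library held crestospheres, the free-floating aggregates formed from them.

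Both groups carried no engineered allele and shared the earlier steps of induction with BMP4, SB431542 (an inhibitor of TGFβ-family receptors) and CHIR (a GSK3 inhibitor that activates WNT signalling). Retinoic acid entered the medium on days 6, 8 and 10. On day 12 the cells were detached and moved into a medium with FGF2, CHIR and the N2 and B27 supplements. Each library pooled 2 biological repeats that could not be told apart in the deposited cell annotation, so each stage was 1 sample. No test, SE or p-value was computed for any difference, and intervals given below are exact 95% intervals for counting error only. Day, culture format, medium and library cannot be told apart.

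HOX genes encode homeodomain transcription factors that give cells their position along the body axis. They lie in 4 clusters, and the order of genes along a cluster follows the order of their expression along the axis, from low paralog numbers in the hindbrain to high numbers in the tail. Retinoic acid switches on the low-numbered genes first, and the vagal neural crest that colonizes the gut arises next to the posterior hindbrain and expresses HOX genes of the low and middle paralog groups. PBX and MEIS proteins bind DNA together with HOX proteins.

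On the GRCh38 build with the GENCODE annotation, HOXA held 11 genes on chromosome 7 and HOXB held 10 genes on chromosome 17 (chr17:48528526-48729178). HOXC held 9 genes on chromosome 12 (chr12:53938765-54056030) and HOXD 9 genes on chromosome 2 (chr2:176092891-176190907). Of the 39 genes, 24 overlapped another annotated gene on the same strand and 25 overlapped one on the other strand. HOXB3 spans HOXB4 and HOXB5 and overlaps HOXB6, HOXA3 spans HOXA4 to HOXA6, and HOXD3 spans HOXD4. HOXB2 overlaps HOXB-AS1 on the opposite strand, and the non-coding gene HOTAIRM1 overlaps a gene of the HOXA cluster in the same way. The strand setting of the counting was not given in the sources used here, so reads of these neighbours may not be separated, and HOXB1 was the well-counted gene that overlaps none.

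HOXB1 and HOXA2 are shown by the 250 bases before their start. HOXB1 fell from 1036 UMIs to none between the stages. Among the 20 HOX genes with a window, these 2 were the expressed ones whose upstream bases held the letters TGATNNAT. These letters are the core bound by PBX with a low-numbered HOX partner. The other HOX genes, HOXB2 and HOXB5 among them, had no window and were not searched. The sequences are from RefSeq on GRCh38.p14, read 5′ to 3′ along the gene, and the capitals mark the match. The HOXB1 window lies at chr17:48531012-48531261 on the minus strand, with its match starting 125 bases before the start of the gene. The HOXA2 window lies at chr7:27102684-27102933 on the minus strand, and its match reads on the other strand and starts 114 bases before the RefSeq start. The GENCODE annotation puts the HOXA2 start inside this window, at chr7:27102811, so by that annotation the match lies within the gene.
HOXB1: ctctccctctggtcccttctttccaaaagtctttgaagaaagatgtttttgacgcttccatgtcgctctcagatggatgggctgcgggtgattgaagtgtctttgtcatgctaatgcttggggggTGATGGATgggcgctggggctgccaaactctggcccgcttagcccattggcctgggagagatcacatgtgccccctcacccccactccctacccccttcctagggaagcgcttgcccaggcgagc
HOXA2: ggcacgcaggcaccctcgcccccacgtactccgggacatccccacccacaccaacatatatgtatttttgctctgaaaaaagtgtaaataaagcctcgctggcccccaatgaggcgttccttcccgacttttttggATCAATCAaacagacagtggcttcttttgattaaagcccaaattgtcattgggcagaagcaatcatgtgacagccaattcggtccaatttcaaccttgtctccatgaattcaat
Over 300-base windows that add the first 50 bases of the gene, and on both strands, TGATNNAT was in 3 of 27 HOX windows, from 20 HOX genes, and in 7.40% of all 35116 windows of the table. The homeodomain core TAATTA was in 2 of the 27 and in 4.84% of all. The letters AGGTCA or AGTTCA, single half-sites of retinoic acid receptors, were in 6 of the 27 and in 22.6% of all. No HOX window held 2 such half-sites as a direct repeat 5 or 2 bases apart, an arrangement found in 0.0199% and 0.00570% of all windows. The letters alone do not mark a bound site.

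The day 10 library held 9627 cells and 70488169 UMIs with a median of 6713 UMIs per cell, and the day 15 library held 6320 cells and 84976253 UMIs with a median of 11770.5. The authors' quality limits kept 7295 and 5336 of them, and their annotation of cell types and subclusters was used for these cells. At day 10 the types were 4921 enteric neural crest cells (ENCCs), 1811 neuro-epithelial progenitors (NEP), 324 cranial placode cells (CP) and 239 non-neural ectoderm cells (NNE). At day 15 they were 4934 ENCCs, 104 NEP, 208 CP1, 43 CP2 and 47 cells labelled Mes. The 2 libraries shared 102 cell barcodes, and leaving these cells out gave a ratio of 0.0776 in place of 0.0763 for the summed HOX level of ENCCs between the stages.

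Markers of the labelled types were checked first. NNE held the epithelial genes KRT18 at 2151 CPM (a gene's UMIs scaled by all UMIs of the same cells) and EPCAM at 248 CPM, beside GATA3 of the surface ectoderm at 159 CPM. NEP held WNT2B at 827 CPM and the neural gene PAX6 at 572 CPM, while the early neural gene SOX1 was near 0 at 0.21 CPM. CP at day 10 held the neurogenic factor NEUROD1 at 164 CPM. CP2 at day 15 held PAX6 at 381 CPM and NEUROD1 at 57.2 CPM, with the placode gene EYA2 at 4.98 CPM. The NEP label at day 15 went with KRT18 at 374 CPM above WNT2B at 123 CPM, so that name rests on mixed markers.

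At day 10, HOX RNA was highest in NNE, intermediate in NEP and CP, and lowest in ENCCs. The 39 genes summed to 541.7 CPM in NNE (509 to 576), to 138 CPM in NEP (132 to 145), to 124 CPM in CP (111 to 139) and to 17.6 CPM in ENCCs (16.3 to 19.0). The NNE sum was 30.8 times that of ENCCs (27.9 to 34.0), the NEP sum 7.87 times (7.19 to 8.61) and the CP sum 7.05 times (6.14 to 8.08). The intervals of NEP and CP overlapped, with a CP to NEP ratio of 0.896 (0.793 to 1.01). Median depth was similar in the 4 types, between 7004 UMIs per cell in ENCCs and 7438 in CP.

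At day 15, HOX RNA was low in every type except CP2. The sum was 152 CPM in CP2 (116 to 195), 25.3 CPM in NEP (16.9 to 36.3), 17.8 CPM in Mes (8.55 to 32.8), 9.63 CPM in CP1 (6.10 to 14.4) and 1.34 CPM in ENCCs (1.06 to 1.68). CP2 exceeded ENCCs 113-fold (79.2 to 161) and rested on 43 cells. The intervals of NEP and Mes overlapped, as did those of Mes and CP1, so the order of these neighbours was not resolved.

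**Figure D1:**
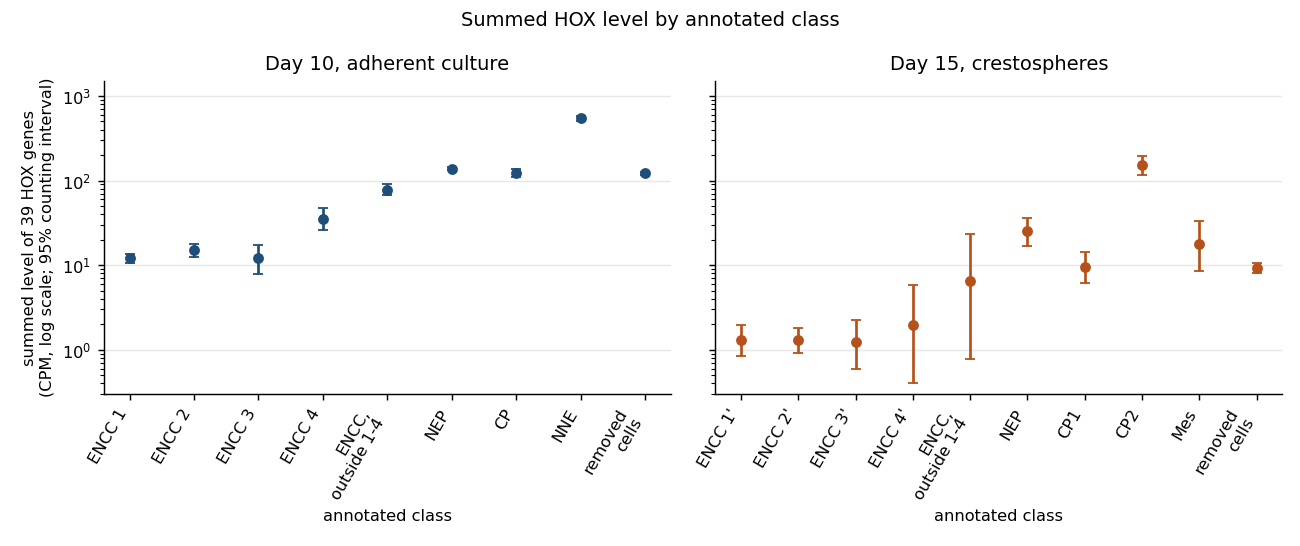
Summed level of the 39 HOX genes in CPM (log axis) for every cell type and ENCC subcluster of the day 10 and day 15 libraries, with exact 95% Poisson intervals as bars. Day 10 NNE is highest at 541.7 CPM, day 15 ENCCs are lowest among the named cell types at 1.34 CPM, and CP2 is the only day 15 cell type above 100 CPM.

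The members were unequally used. Of 5751 HOX UMIs at day 10, HOXB2 had 1549, HOXB1 1036, HOXB5 379, HOXA3 342, HOXB3 167 and HOXB6 57. The HOX genes without a UMI there were 19: HOXA6, HOXA7, HOXA9, HOXA10, HOXA11, HOXA13, HOXB9, HOXC6, HOXC8 to HOXC12 and HOXD8 to HOXD13. Of 425 HOX UMIs at day 15, HOXB2 had 178 and was the one gene past 50. The 17 genes with none were HOXA6, HOXA9 to HOXA11, HOXA13, HOXB1, HOXC5, HOXC6, HOXC8, HOXC10 to HOXC13, HOXD1 and HOXD10 to HOXD12. A count of 0 over a library allows a level of up to 3 UMIs in its total. Since the 3′ assay counts molecules and not fragments, these counts were compared between genes without division by length.

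HOXB1 (chr17:48528526-48531001) marks rhombomere 4 of the hindbrain. Its level was 127 CPM in NNE (234 UMIs in 112 cells), 28.6 CPM in NEP (401 UMIs in 183 cells), 19.5 CPM in CP (49 UMIs in 12 cells) and 0.974 CPM in ENCCs (36 UMIs in 32 cells). The 4 types followed the order of the HOX sum, and in CP few cells held the counts. At day 15 HOXB1 had no UMI in any of the 6320 cells.

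HOXB2 (chr17:48540894-48544989), a hindbrain gene of the next paralog group, was the HOX gene that reached furthest into ENCCs. It stood at 105 CPM in NNE (193 UMIs in 115 cells), 48.7 CPM in CP (122 UMIs in 69 cells), 30.1 CPM in NEP (422 UMIs in 306 cells) and 10.3 CPM in ENCCs (381 UMIs in 300 cells). At day 15 it stood at 37.3 CPM in CP2 (15 UMIs), 8.92 CPM in Mes (5 UMIs), 5.23 CPM in NEP (6 UMIs), 4.61 CPM in CP1 (11 UMIs) and 0.680 CPM in ENCCs (38 UMIs in 37 cells). HOXB2 made up more of the HOX counts of ENCCs than any other gene at both stages.

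HOXA3 (chr7:27106184-27152581) and HOXB3 (chr17:48548870-48604912), genes of the paralog group that patterns the posterior hindbrain and pharyngeal arches, were mostly in NNE. HOXA3 was at 55.2 CPM in NNE (102 UMIs), 7.55 CPM in NEP (106 UMIs), 1.60 CPM in CP (4 UMIs) and 0.271 CPM in ENCCs (10 UMIs). HOXB3 was at 22.2 CPM in NNE (41 UMIs), 2.92 CPM in NEP (41 UMIs), 2.39 CPM in CP (6 UMIs) and 0.595 CPM in ENCCs (22 UMIs). The day 15 classes held at most 5 UMIs of either gene.

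HOXB5 (chr17:48591257-48593961), a gene of the vagal crest and gut, stood out in NNE and CP. It was at 54.7 CPM in NNE (101 UMIs in 63 cells), 34.3 CPM in CP (86 UMIs in 24 cells), 2.35 CPM in NEP (33 UMIs in 25 cells) and 0.0812 CPM in ENCCs (3 UMIs in 3 cells). In CP2 at day 15 it was the leading HOX gene, at 52.2 CPM (21 UMIs in 12 cells), while ENCCs held 2 UMIs, CP1 2, and NEP and Mes none. HOXB6 (chr17:48595751-48604992), its neighbour, was at 9.75 CPM in NNE (18 UMIs), with 8 UMIs in NEP and 1 each in CP and ENCCs, and had 1 UMI in all of day 15.

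**Figure D2:**
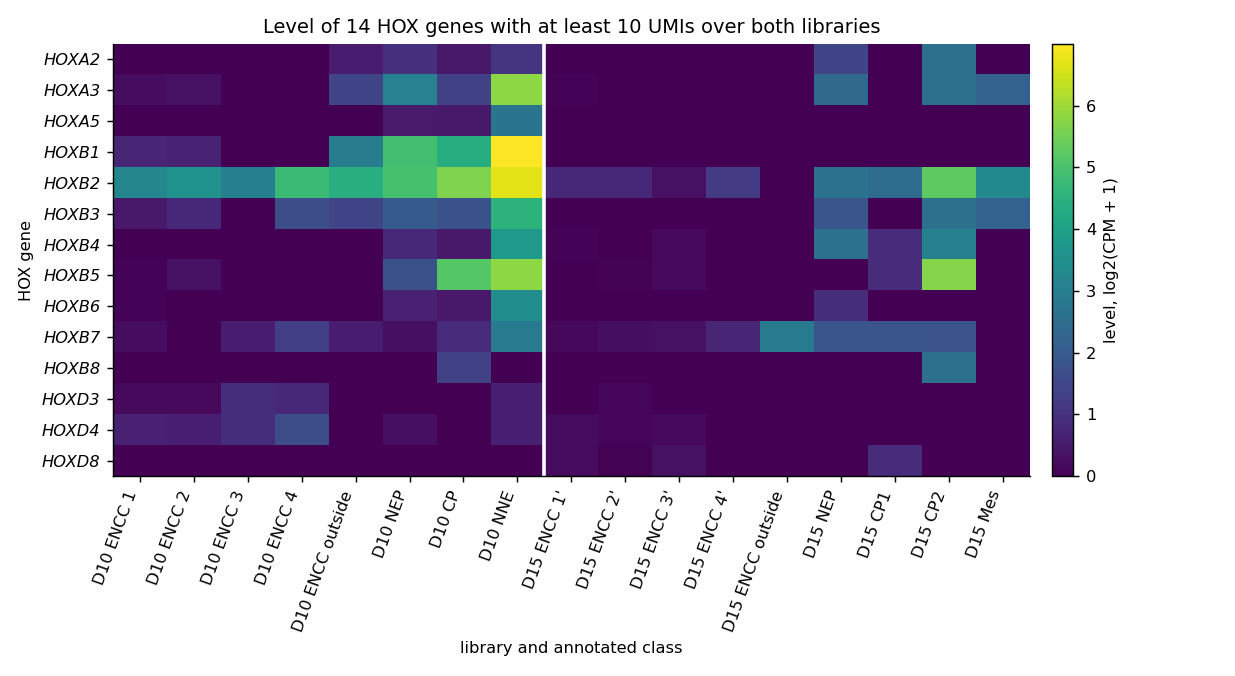
Level of 14 HOX genes with at least 10 UMIs over both libraries (rows) in every cell type and subcluster (columns), coloured by CPM on a log scale. HOXB1 and HOXB2 reach 127 and 105 CPM in the NNE column, HOXB5 stands out in NNE, CP and day 15 CP2, and the day 15 ENCC columns are nearly empty apart from HOXB2 at 0.680 CPM.

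The clusters were not used in the same proportions. In NEP, 52.2% of HOX UMIs were from HOXA and 47.2% from HOXB. In NNE the shares were 37.3% and 62.3%, and in CP 12.9% and 87.1%. In day 10 ENCCs HOXA gave 26.2%, HOXB 69.4% and HOXD 4.46%, or 12.5%, 81.4% and 6.12% in the numbered subclusters alone. ENCCs and CP were therefore the types in which HOXB outweighed HOXA most. At day 15, ENCCs held 4.00% from HOXA, 72.0% from HOXB and 22.7% from HOXD, over 75 UMIs.

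Paralog groups 1 to 3 made up 96.4% of HOX UMIs in NEP, 94.8% in day 10 ENCCs, 83.1% in NNE and 69.5% in CP. Groups 4 to 8 made up 16.8% in NNE and 30.6% in CP, where HOXB5 gave most of it. In the few HOX counts of day 15 these middle groups took 37.3% in ENCCs, 44.3% in CP2 and 52.2% in CP1. Groups 9 to 13, the genes of the trunk and tail, stayed at or under 0.1% in each day 10 type. In day 15 ENCCs they took 5.33% of the 75 UMIs.

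**Figure D3:**
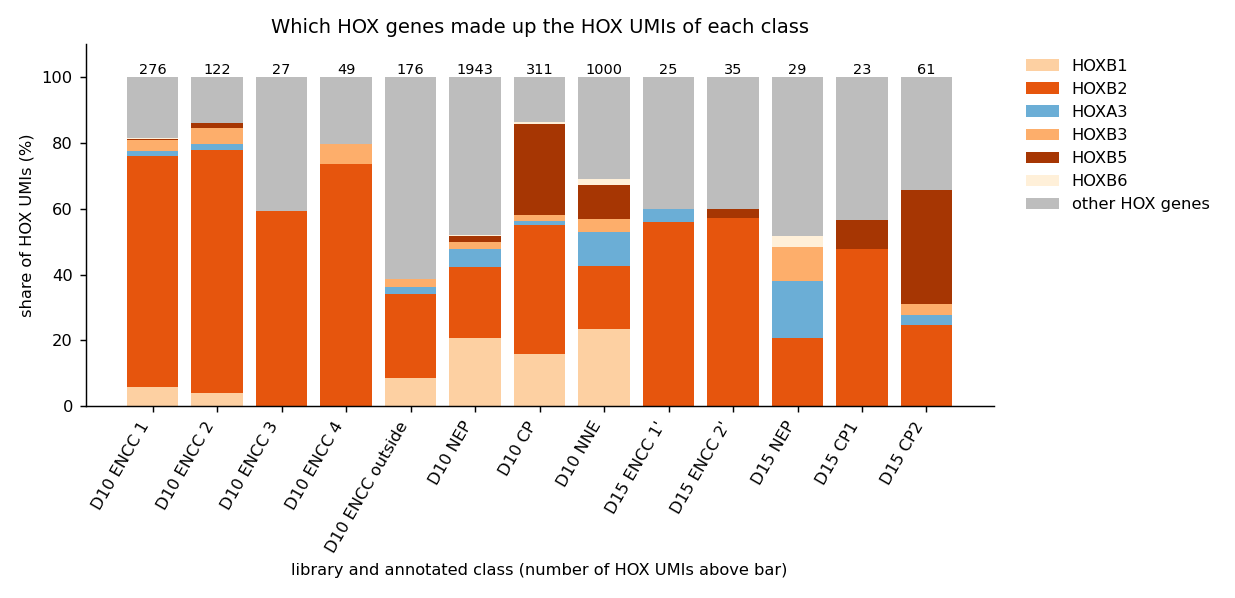
Share of HOX UMIs (percent) given by each of 6 HOX genes with at least 50 UMIs in a library in every class with at least 20 HOX UMIs. Blue is HOXA3, oranges are HOXB genes and grey is all other HOX genes. HOXB2 is the largest part of every numbered ENCC bar, HOXB1 is wider in NEP and NNE than in those, and HOXB5 is wide in CP and in day 15 CP2.

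NEP was compared with ENCCs at day 10 gene by gene, over genes with at least 10 UMIs in the 2 sums together. HOXB4 met this minimum through NEP alone, with 10 UMIs there and none in ENCCs. Of 10 HOX genes with enough counts, 8 were more than 2-fold higher in NEP, where 23.0% of all genes were, and HOXD4 was more than 2-fold lower, where 5.49% of all genes were. HOXB1 was 29.3-fold higher in NEP (20.8 to 42.5), HOXA3 27.9-fold (14.6 to 59.9) and HOXB2 2.92-fold (2.53 to 3.36). HOXB7 was the one gene within 2-fold, at 0.214 CPM in NEP (3 UMIs) and 0.217 CPM in ENCCs (8 UMIs). HOXD4 had 3 UMIs in NEP and 22 in ENCCs, and its ratio of 0.359 had an interval that reached past 1 (0.0688 to 1.19).

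In CP, 7 of 8 HOX genes compared were more than 2-fold above ENCCs, where 10.3% of all genes were, and 0 were lower, where 5.61% were. HOXB5 was 422-fold above its 3 UMIs in ENCCs (139.8 to 2089), HOXB1 20.1-fold (12.8 to 31.7) and HOXB2 4.72-fold (3.82 to 5.80). HOXB7 rested on 2 UMIs in CP, with an interval that reached below 1 (0.381 to 18.5). HOXD4 had no UMI in CP and could not be placed. Against NEP, CP differed in which genes were used: of 8 genes compared, HOXB5 was higher by 14.6-fold, where 7.04% of all genes were past 2-fold, and 3 were lower, where 19.3% of all genes were. Among those, HOXA2 and HOXA3 had ratios of 0.400 (0.00946 to 2.63, on 1 UMI in CP) and 0.211 (0.0565 to 0.557). The HOXA cluster as a whole was at 0.221 of its NEP level in CP and the HOXB cluster at 1.65.

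In NNE, 10 of 11 HOX genes compared were more than 2-fold above ENCCs, where 17.9% of all genes were, and 0 were lower, where 7.69% were. Likewise, 10 of 11 were more than 2-fold above NEP, where 8.51% of all genes were, and 0 were lower, where 13.8% were. HOXB4 and HOXA5 had no UMI in ENCCs, and in that comparison they met the minimum through 23 and 10 UMIs in NNE alone. Among the genes compared, the excess of NNE over NEP tended to be larger for higher paralog numbers. It was 4.44-fold for HOXB1 (3.76 to 5.23), 3.48-fold for HOXB2 and 1.09-fold for HOXA2 (0.120 to 4.73, on 2 UMIs in NNE). For HOXA3 and HOXB3 it was 7.32-fold and 7.60-fold, for HOXB4 17.5-fold and for HOXA5 12.7-fold. HOXB5 followed at 23.3-fold (15.6 to 35.6), HOXB6 at 17.1-fold and HOXB7 at 30.4-fold. HOXA5, HOXB6 and HOXB7 each had fewer than 20 UMIs in NNE. In NEP, HOXB7 had 3 UMIs, HOXA5 6, HOXB6 8 and HOXB4 10. HOXC5, with 5 UMIs in NEP and 1 in NNE, was below the minimum. The ratio of NNE to NEP was therefore smallest in paralog groups 1 and 2 and largest in groups 4 to 7 among the genes compared, on few NEP counts in the latter.

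At the level of single cells, 86.2% of NNE cells, 45.5% of NEP cells, 28.1% of CP cells and 10.0% of ENCCs held at least 1 HOX UMI at day 10. Thinned to 3000 UMIs per cell, the shares were 70.7%, 27.0%, 16.2% and 4.54%. At day 15 the shares were 69.8% in CP2, 17.0% in Mes, 12.5% in NEP, 8.17% in CP1 and 1.44% in ENCCs, or 0.401% in ENCCs when thinned to the same depth, with a median depth of 11082 UMIs per ENCC. Cells with UMIs from 4 or more HOX genes were 68 of 239 in NNE, 44 of 1811 in NEP and 10 of 324 in CP. They were 0 of 4921 in ENCCs, which allows a share of up to 0.0610%.

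HOX counts of CP were concentrated in few cells. The 16 CP cells with 5 or more HOX UMIs held 64.6% of the type's HOX UMIs, and 1 of them held 29. In NNE, 94 of 239 cells with 5 or more held 72.9%, and in NEP 108 of 1811 cells held 39.3%. The most HOX UMIs in 1 ENCC was 5 at day 10 and 2 at day 15. When each CP cell was given the same weight, the CP sum rose from 124 to 176 CPM. The 12 CP cells with HOXB1 had a median of 6140 UMIs, against 7467 in the others.

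In NEP and NNE, HOX genes were often counted in the same cells. This was rare in ENCCs, where 35 of the 493 day 10 cells with a HOX UMI held 2 or more HOX genes. At day 15 it was 2 of 71. In NEP, HOXB2 was in 53.0% of the 183 cells with HOXB1 and in 12.8% of the 1628 cells without, HOXA3 was in 26.2% and 2.21%, and HOXB5 in 10.4% and 0.369%. The median depths of these cells were 8394 and 7113 UMIs. HOXB1 thus marked NEP cells in which higher-numbered HOX genes were also counted. It was itself in 59 of the 683 NEP cells with the forebrain and midbrain gene OTX2 and in 124 of the 1128 without, while HOXB5 was in 1 NEP cell with OTX2 and in 24 without. In NNE, HOXB5 was in 36.6% of the 112 cells with HOXB1 and in 17.3% of the 127 without, at median depths of 7795.5 and 6328 UMIs. In CP, the 95 cells with the neuronal gene STMN2 held HOXB5 in 17.9% and HOXB2 in 33.7%, against 3.06% and 16.2% of the 229 cells without, at median depths of 7841 and 7316 UMIs.

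ENCC subclusters differed in HOX level. ENCC 1, 2 and 3 were at 12.0, 15 and 12.0 CPM, and ENCC 4 at 35.5 CPM (26.2 to 46.9). ENCC 4 was 2.95-fold above ENCC 1 (2.13 to 4.01), and its HOXB2 level of 26.1 CPM was 3.09-fold above the 8.45 CPM of ENCC 1 (2.10 to 4.42). Placode markers summed to 31.1 CPM in ENCC 4, more than in the other numbered subclusters, and their part in the result was not tested. The 256 ENCCs outside the numbered subclusters, which carried the ENCC type but the subtype label Non-NC in the deposited annotation, were at 78.2 CPM (67.1 to 90.7), with HOXB2 at 20.0 CPM and HOXB1 at 6.67 CPM. Those cells held the NEP markers WNT2B at 649 CPM and PAX6 at 458 CPM, and of 36 HOXB1 UMIs in ENCCs they held 15. The day 15 subclusters ENCC 1' to 4' lay between 1.22 and 1.98 CPM with overlapping intervals.

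Low counts in ENCCs were set beside those of genes that mark NEP, since free RNA in droplets gives such counts in cells that do not express a gene. In the 4665 ENCCs of the numbered subclusters, WNT2B was at 1.30% of its NEP level and in 7.57% of cells, and PAX6 at 1.17% and in 4.72% of cells. HOXB1 was at 2.12% of its NEP level (1.30 to 3.28) and in 0.450% of cells, and HOXA3 was at 2.29% (0.822 to 5.15). HOXB1 and HOXA3 were thus at a few percent of their NEP level, and the 2 NEP markers at little more than 1%. HOXB5, on 3 UMIs, was at 3.68% (0.722 to 11.7). HOXB2 was at 32.2% of its NEP level (27.8 to 37.3) and in 5.68% of cells, and HOXB3 was at 17.8% (9.61 to 31.6).

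HOXB2 and HOXB3 also stood in other ratios to HOXB1 in the ENCCs of the numbered subclusters than in the whole library. HOXA3 stood near its library ratio. Scaled to the 21 HOXB1 UMIs of these ENCCs, the library totals correspond to 31.4 HOXB2, 6.93 HOXA3 and 3.38 HOXB3 UMIs, and 336, 6 and 18 were counted. HOXB2 per HOXB1 was 16 in these ENCCs, 3 in the ENCCs outside the subclusters, 2.49 in CP, 1.05 in NEP and 0.825 in NNE. No background profile from empty droplets was used, and the part of free RNA in these counts was not tested. HOXD4, a gene of the posterior hindbrain, had 22 of its 27 day 10 UMIs in the numbered ENCC subclusters.

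Between the stages, the HOX level of ENCCs was lower at day 15 than at day 10. The sum fell from 17.6 CPM at day 10 to 1.34 CPM at day 15, a ratio of 0.0763 (0.0593 to 0.0971), or 13.1-fold lower. Of 7 HOX genes with enough counts, 6 were more than 2-fold lower at day 15, where 15% of all genes were, and 0 were higher, where 12.8% were. The median log2 ratio of the 7 was -3.92, against -0.16 over all genes compared. Members with fewer counts entered only the sum. The minimum of 10 UMIs was taken over both stages together. HOXB1 and HOXB3 had no UMI in day 15 ENCCs and met it through their day 10 counts alone. With a minimum of 50 UMIs, 2 genes were compared and 2 were lower.

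HOXB2 in ENCCs went from 10.3 to 0.680 CPM, 15.2-fold lower, with a ratio of 0.0660 (0.0460 to 0.0922). HOXB1 and HOXB3 had no UMI in day 15 ENCCs and were at least 18.1-fold and 11.1-fold lower against a floor of 3 UMIs. HOXB2 thus kept the most counts in day 15 ENCCs. HOXD4 was at 0.180 of its day 10 level (0.0598 to 0.459). HOXB7, a gene of the trunk, was level, with 8 UMIs at day 10, 12 at day 15 and a ratio of 0.990 (0.373 to 2.80). By cluster, ENCC ratios were 0.0117 for HOXA, 0.0792 for HOXB and 0.388 for HOXD (0.200 to 0.730). Of the 170 HOXA UMIs in day 10 ENCCs, 111 lay outside the numbered subclusters, against 65 of 451 HOXB and 0 of 29 HOXD UMIs. The numbered subclusters held 59 HOXA UMIs at day 10 and 3 at day 15. The HOXA ratio of all ENCCs thus rested mostly on day 10 cells labelled Non-NC.

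Over all cells, the sum fell from 81.6 to 5.00 CPM, a ratio of 0.0613 (0.0554 to 0.0677). In such sums over a whole library, fewer cells of a type and less HOX RNA per cell cannot be told apart, and NNE was a type of day 10 only. Of 15 genes compared, 12 were more than 2-fold lower, where 19.8% of all genes were. HOXD8 was more than 2-fold higher, where 13.1% of all genes were, from 0 to 14 UMIs or at least 3.87-fold. HOXB1 went from 1036 to 0 UMIs, at least 416-fold lower, HOXB2 was 10.5-fold lower and HOXB5 9.72-fold. HOXB7 was level again, with 36 UMIs at day 10 and 48 at day 15 (1.11-fold). By cluster, the ratio was 0.0217 for HOXA, 0.0816 for HOXB, 0.237 for HOXC and 0.762 for HOXD (0.464 to 1.25), so the loss was steepest in HOXA and not resolved in HOXD.

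**Figure D4:**
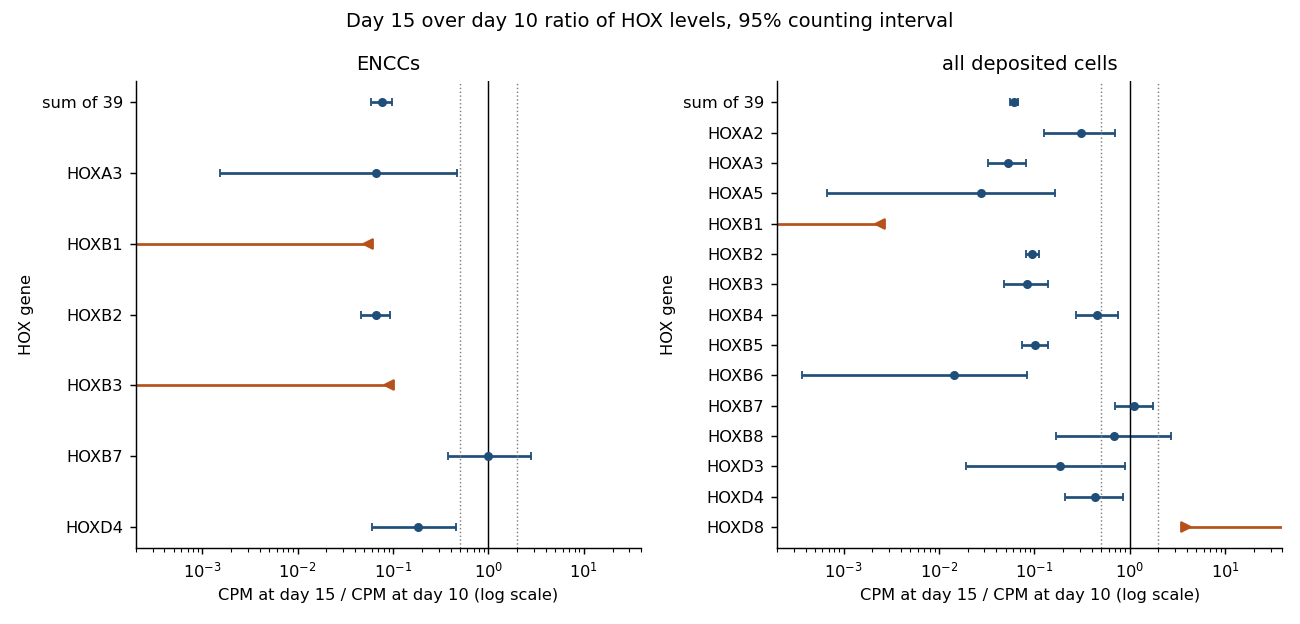
Ratio of the CPM at day 15 to that at day 10 (log axis) for the HOX sum and for described HOX genes with at least 10 UMIs in the 2 sums together, in ENCCs and over all cells, with exact 95% intervals for counting error and arrows at the bound that a floor of 3 UMIs gives for genes with no UMI at one stage. HOXB1 and HOXB2 lie far below a ratio of 1 in both, HOXB7 lies near 1, and HOXD8 is above 1 over all cells.

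The HOX sum was also taken by cell cycle phase, as the authors called it. All ENCCs of day 10 were at 20.7 CPM in G1 (18.3 to 23.3), 14.9 CPM in S (12.8 to 17.2) and 17.0 CPM in G2M (14.8 to 19.5). The ENCCs of the numbered subclusters alone were at 13.7 CPM in G1, 13.7 CPM in S and 13.5 CPM in G2M, so the G1 excess was seen only with the cells outside them. Day 15 ENCCs were at 1.82 CPM in G1 (1.25 to 2.57), 1.17 CPM in S and 1.04 CPM in G2M (0.582 to 1.72), with overlapping intervals. In CP the sum was 175 CPM in G1 (155 to 198), 33.9 CPM in S and 58.8 CPM in G2M. NEP was at 133, 134 and 166 CPM in these phases and NNE at 586, 487 and 453 CPM.

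Of the non-coding genes within the clusters, HOTAIRM1 kept the order of the HOX sum over the day 10 types and HAGLROS did not. Reads of HOTAIRM1 may not be separated from those of the HOXA gene it overlaps. HOTAIRM1, a transcript of the HOXA cluster, was at 381 CPM in NNE, 108 CPM in NEP, 25.9 CPM in CP and 7.85 CPM in ENCCs, then at 79.6 CPM in day 15 CP2 and 0.143 CPM in day 15 ENCCs. HAGLROS, a transcript of the HOXD cluster, was at 2.65 CPM in ENCCs, 2.39 CPM in CP, 0.285 CPM in NEP and 0 in NNE. Of the 16 listed non-coding genes present as names, 3 had enough counts in the ENCC stage comparison, HOTAIRM1, HOXB-AS1 and HAGLROS. All 3 were more than 2-fold lower at day 15, where 15% of all genes were. Their median log2 ratio was -5.63, beside -0.16 for all genes. Of 9 flanking genes compared there, 3 were lower, beside 15% of all genes, and the median was -0.68. They were SKAP2 and HIBADH next to HOXA and SKAP1 next to HOXB. SKAP2 was at 107 CPM in NNE, 34.3 CPM in NEP and 4.84 CPM in ENCCs.

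HOX cofactors were more widely present than the HOX genes. MEIS2 was at 330 CPM in NNE, 157 CPM in NEP, 77.0 CPM in CP and 48.0 CPM in ENCCs. Between the stages in ENCCs, 4 of 9 cofactors were more than 2-fold lower, among them PBX4, MEIS1 and PKNOX2, where 15% of all genes were, and MEIS3 was higher, where 12.8% were. The median log2 ratio of the 9 was -0.97 beside -0.16 for all genes. In NEP against ENCCs, 3 of 9 were higher (PBX3, PBX4 and MEIS2), near the 23.0% of all genes, with a median of 0.87 beside 0.26 for all genes. In CP against ENCCs, 0 of 9 were past 2-fold in either direction, where 10.3% of all genes were higher and 5.61% lower. In NNE, the type with the most HOX RNA, cofactors went both ways: MEIS1, MEIS2 and PKNOX1 were higher than in ENCCs, where 17.9% of all genes were, and PBX4, MEIS3 and PKNOX2 were lower, where 7.69% were.

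Genes of retinoic acid synthesis and breakdown were mostly higher in NEP and NNE. In NEP, 8 of 9 listed genes compared were more than 2-fold above ENCCs, where 23.0% of all genes were. The median log2 ratio of the 9 was 1.93, beside 0.26 for all genes. In NNE 5 of 9 were more than 2-fold above ENCCs, where 17.9% of all genes were, and CRABP1 and ALDH1A1 were lower, where 7.69% were. CYP26A1, the enzyme that degrades retinoic acid and is itself induced by it, was at 1198 CPM in NNE, 691 CPM in NEP, 45.4 CPM in ENCCs and 41.5 CPM in CP. DHRS3, a retinaldehyde reductase, was at 213 CPM in NNE, 112 CPM in NEP and 10.2 CPM in ENCCs. In ENCCs, 5 of 10 were lower at day 15 (ALDH1A1, DHRS3, CYP26A1, CYP26C1 and CRABP1), where 15% of all genes were. ALDH1A2, a retinoic acid-producing enzyme, was higher, where 12.8% of all genes were. The median log2 ratio of the 10 was -1.26, beside -0.16 for all genes. CYP26A1 in ENCCs was at 0.269 CPM and DHRS3 at 0.304 CPM at day 15.

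Among activators upstream of HOX genes, RARB, a retinoic acid receptor gene, was at 47.7 CPM in NNE and more than 2-fold higher in NEP than in ENCCs. In the ENCC stage comparison, 4 of 10 of these activators were lower, among them RARB and RARG, and 2 were higher (EGR2 and RXRG), beside 15% and 12.8% of all genes, with a median log2 ratio of -0.78. EGR2, a factor of rhombomeres 3 and 5 and of crest-derived glia, went from 7 UMIs (0.189 CPM) to 339 UMIs (6.07 CPM) in ENCCs, while HOXB2, which it activates in the hindbrain, was lower. T, the trunk mesoderm gene also named TBXT, had no UMI in either library, and the caudal factor CDX2 was at 3.25 CPM in NNE. Of 15 Polycomb genes, whose products hold HOX clusters silent, 0 were past 2-fold in ENCCs between stages. There 15% of all genes were lower and 12.8% higher, and the median log2 ratio of the 15 was -0.30, beside -0.16 for all genes. At day 10, 0 were past 2-fold in NEP against ENCCs, where 23.0% of all genes were higher and 5.49% lower. The same held in CP, where 10.3% were higher and 5.61% lower. In NNE, EZH1 and CBX7 were higher and 1 was lower, near the 17.9% and 7.69% of all genes.

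Genes of the forebrain and midbrain were set against the HOX genes as their anterior counterpart. In NEP, 9 of 10 compared were more than 2-fold above ENCCs, where 23.0% of all genes were. Among them were OTX2 at 68.0 CPM and OTX1 at 65.7 CPM. The median log2 ratio of the 10 was 3.47, beside 0.26 for all genes. Between the stages in ENCCs, 7 of 9 were lower, where 15% of all genes were, and EN2 was higher, where 12.8% were. The median of the 9 was -3.06, beside -0.16 for all genes. NEP as a class therefore held both anterior genes and low-numbered HOX genes, and HOXB1 was no more frequent in its cells with OTX2 than in those without. In NNE, OTX2 was at 8.12 CPM. The day 15 NEP held the forebrain gene EMX2 at 255 CPM beside its HOX sum of 25.3 CPM.

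The genes whose levels were most like the HOX sum were ranked by Pearson's r of log2(CPM + 1) over 17 classes, 8 of day 10 and 9 of day 15, among 7831 genes with at least 20 CPM in a class. HOTAIRM1 came first (r = 0.97), and the 10 highest also held MEIS2 (0.93), ADIPOR1 (0.92), ID1 (0.92), TSTD1 (0.92), PDHB (0.91), NGFRAP1 (0.91), LRRN1 (0.91) and EIF2AK1 (0.91). The classes of a stage share 1 library and differ in depth, so these values are descriptions. HOTAIRM1 overlaps a HOXA gene of the sum on the opposite strand. With the strand setting not given, reads counted for both may enter its likeness, which was not tested. Within day 10 alone, r was 0.95 for HOTAIRM1 and 0.95 for MEIS2, and within day 15 it was 0.98 and 0.97. CYP26A1 was less alike (0.84 over all, 0.85 at day 10 and 0.64 at day 15).

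**Figure D5:**
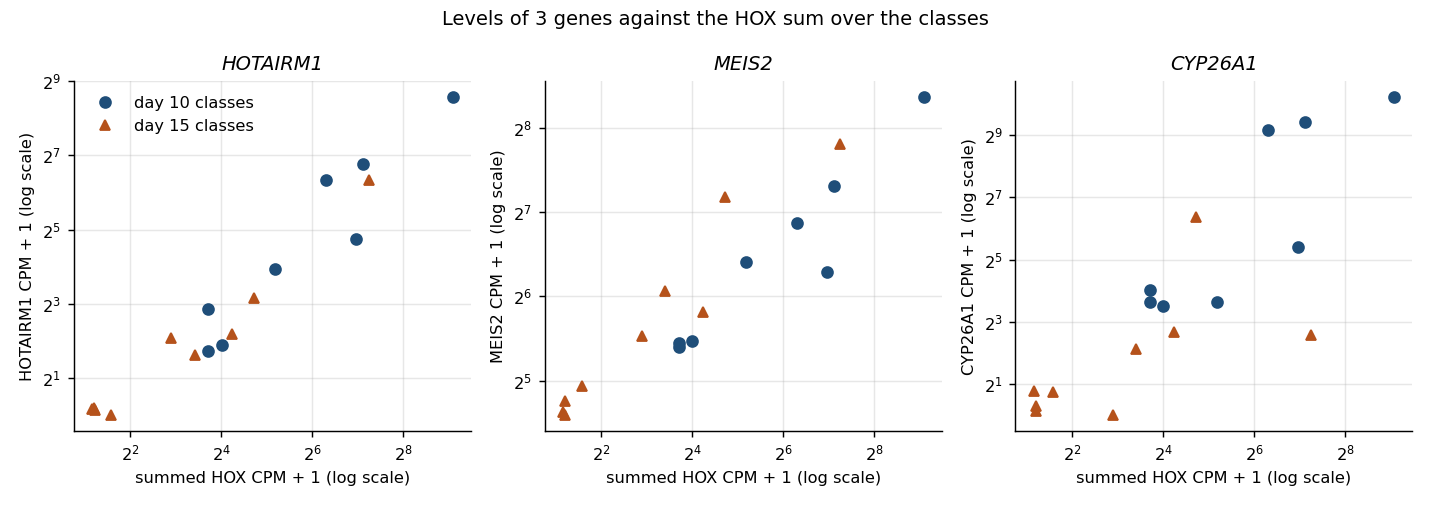
Level of HOTAIRM1, MEIS2 and CYP26A1 against the summed level of the 39 HOX genes, both as CPM + 1 on log axes, with 1 point for each of 17 classes of day 10 and day 15. HOTAIRM1 (r = 0.97) and MEIS2 (r = 0.93) rise with the HOX sum in both stages, while CYP26A1 (r = 0.84) spreads more at day 15.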

How the data were processed

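Droplet 3′ single-cell RNA sequencing was done on 1 library per stage. The authors deposited raw UMI counts per gene and cell, with the percent of mitochondrial and ribosomal UMIs, cell types, subclusters and phases. Their methods name kallisto and bustools with Seurat, while the submitters' processing notes name Cell Ranger, Seurat 4.0.4 and GRCh38. Cells outside their limits on genes, UMIs and mitochondrial percent were marked in the deposited table. They clustered each library on its own and regressed out depth and cell cycle scores. Doublets were not called beyond these limits, and leaving out the deepest 6% of all deposited cells was an alternative. At day 15 this left the HOX sum of every cell type unchanged, so it could not show an effect of doublets there.

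For each class, the UMIs of a gene were added up and scaled by the total of that class (CPM), in Python 3.11.15 with numpy 2.4.6, scipy 1.17.1 and pandas 2.3.3. Levels carry exact Poisson, shares Clopper-Pearson and ratios conditional binomial 95% intervals, all for counting error. Genes with at least 10 UMIs over both sums and more than 2-fold apart were counted, with a floor of 3 UMIs in place of 0, and a gene without UMIs in a sum was never counted as higher there. The scripts were tested on simulated data. TMM factors came from edgeR 4.0.16 in R 4.3.3. Positions were read from GENCODE 29. Other settings were minimum counts, kept cells, numbered subclusters, equal weights, and depths of 3000 and 5000 UMIs per cell, and those with ENCC subclusters as reference or without shared barcodes were chosen after seeing the data. The HOX genes and the gene lists were chosen with earlier results of these data known. HOX genes with at least 50 UMIs in a library were described one by one, list genes were named when past 2-fold or highest in their list, and the 10 genes most like the HOX sum were to be named. Some genes that this rule selects are not reported here. TBXT and LNPK were read under their older names, and 2 HOXC antisense genes were not row names.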

Additional observations from a re-analysis of the deposited data

Results flagged for a closer look

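Cells that the authors' quality limits removed, which enter no cell type, also held HOX RNA. At day 10 the 2332 removed cells summed to 121.9 CPM over the 39 HOX genes, with HOXB2 at 28.5 CPM and HOXB5 at 10.3 CPM, against 70.5 CPM in all kept cells and 17.6 CPM in ENCCs. At day 15 the 984 removed cells summed to 9.22 CPM, with HOXB2 at 4.18 CPM, against 3.28 CPM in all kept cells and 1.34 CPM in ENCCs. They held 103 of the 178 HOXB2 UMIs of day 15. Among the removed cells of day 10, the 318 with too many genes were at 179.7 CPM, those past the mitochondrial limit at 114.7 CPM and those with too few genes at 40.3 CPM. The study has no control library, and the level was set against the count that 0 UMIs allow.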

How the results depend on the processing

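No paired analysis was possible because each stage had 1 library. No alternative reversed a direction. The HOX ratio between the stages in ENCCs ran from 0.0763 to 0.0962. Over all cells it was 0.0613 as reported, 0.0465 in kept cells and 0.0699 with TMM scaling. With a minimum of 50 UMIs, 2 HOX genes were lower in ENCCs in place of 6, since fewer genes were compared. The day 10 CP sum was 176.0 CPM with cells weighted equally. The share of ENCCs with a HOX UMI was 4.54%, 7.06% and 2.21% at day 10, and 0.401%, 0.664% and 0.0811% at day 15, when thinned to 3000 UMIs, to 5000 UMIs and with at least 2 HOX UMIs. With only the numbered ENCC subclusters as the reference, a setting chosen after seeing the data, the day 10 ratios rose to 10.1 for NEP, 9.08 for CP and 39.7 for NNE. Of the 10 genes most like the HOX sum, 9 stayed with a minimum of 5 or of 50 CPM. Classes under 50 cells (CP2, Mes) and genes under 10 UMIs limit what depth can show.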
